A study of Gallus gallus with 4 samples.

Results

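Chromosomes 16, 22 and 25 are very small chicken microchromosomes whose sequence is incompletely assembled, and the condensin peaks that the authors listed on them are described here. All rows of the SMC2 and CAP-H peak lists placed on these 3 chromosomes were taken, whatever their score or width. They made up 335 of the 10843 peaks in the lists, 212 of the 6474 SMC2 peaks and 123 of the 4369 CAP-H peaks. By chromosome there were 39 SMC2 and 20 CAP-H peaks on chromosome 16, 64 and 42 on chromosome 22, and 109 and 61 on chromosome 25. Sequences assigned to the same chromosomes but not placed along them carried 3 SMC2 peaks and 1 CAP-H peak for chromosome 16, 3 and 3 for chromosome 22, and 4 and 3 for chromosome 25. Those peaks lie outside the rule and were not counted.

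The peaks come from cells of the chicken line DT40, derived from a B cell lymphoma and arrested in mitosis by 500 ng/ml of nocodazole, a drug that depolymerises microtubules. In the first cell line the SMC2 gene was knocked out and rescued by SMC2 carrying a streptavidin-binding peptide (SBP) tag, and in the second the same was done for CAP-H. Both were grown with 2 ng/ml doxycycline, which shut off the untagged protein so that the tagged protein was the sole form. Chromatin was crosslinked in 1% formaldehyde and sonicated, DNA bound to the tagged protein was recovered on streptavidin beads, and the fragments were sequenced for 50 bp from 1 end (ChAP-seq). The labels name 4 libraries, a pull-down and an input for each subunit. The files used here are the 2 peak lists, 1 for each pull-down, and the input libraries were not analysed here. With 1 library per subunit no difference has a replicate check, and the intervals below cover counting error only. Neighbouring peaks are not independent of each other, which these intervals do not allow for. The peak files give no read counts, so the depth is unknown, and the copy number of these chromosomes in the cells was not measured.

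Condensin is a ring-shaped complex that uses ATP to form loops of chromatin and so compacts chromosomes for division. SMC2 is an ATPase of the core shared by condensin I and condensin II, while CAP-H is the kleisin subunit that closes the ring of condensin I. The bird karyotype has a few large chromosomes and many microchromosomes, which are gene-dense and rich in GC. Chromosome 16 holds the nucleolar organiser, the array of ribosomal RNA genes around which the nucleolus forms, and the major histocompatibility complex (MHC). Chromosome 25 is known for its families of epidermal structural genes, among them feather keratins. In yeasts, condensin is known to gather at ribosomal DNA and at genes transcribed by RNA polymerase III, such as tRNA genes.

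In the RefSeq gene table of a later assembly, GRCg7b, 331 genes were assigned to chromosome 16, of which 52 were annotated as rRNA and 24 as tRNA, out of 94 and 303 such entries in the whole table. Chromosome 22 had 230 genes and chromosome 25 had 386, with 1 and 2 tRNA entries and 0 rRNA entries on each. Among the genes on chromosome 16 in that table were BF1 and BF2, which encode MHC class I chains, BLB1 and BLB2, which encode class II beta chains, TAP1 and TAP2, which encode the peptide transporter, and CENPA, the histone H3 variant of centromeres. NCAPH, the gene of CAP-H itself, was assigned to chromosome 22. The peaks are in the build galGal4, so none of them was assigned to a gene here, and no DNA sequence of the peaks was read.

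The first question was how densely each chromosome was occupied. The 3 chromosomes differed widely from each other. Densities are given in peaks per Mb with 95% exact Poisson intervals. On chromosome 16 the SMC2 density was 78.6 (55.9 to 107) and the CAP-H density 40.3 (24.6 to 62.2). Chromosome 25 came next with an SMC2 density of 49.8 (40.9 to 60.0) and a CAP-H density of 27.8 (21.3 to 35.8). Chromosome 22 was far lower at 15.7 (12.1 to 20.05) for SMC2 and 10.3 (7.43 to 13.9) for CAP-H. Pooled over the other 15 microchromosomes between 11 and 28, the SMC2 density was 18.04 (17.4 to 18.7) and the CAP-H density 11.001 (10.5 to 11.5). The end of the last peak of either list served as the length, which was 496238 for chromosome 16, 4076387 for chromosome 22 and 2190454 for chromosome 25, and densities are too high by whatever sequence lies beyond it.

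**Figure D1:**
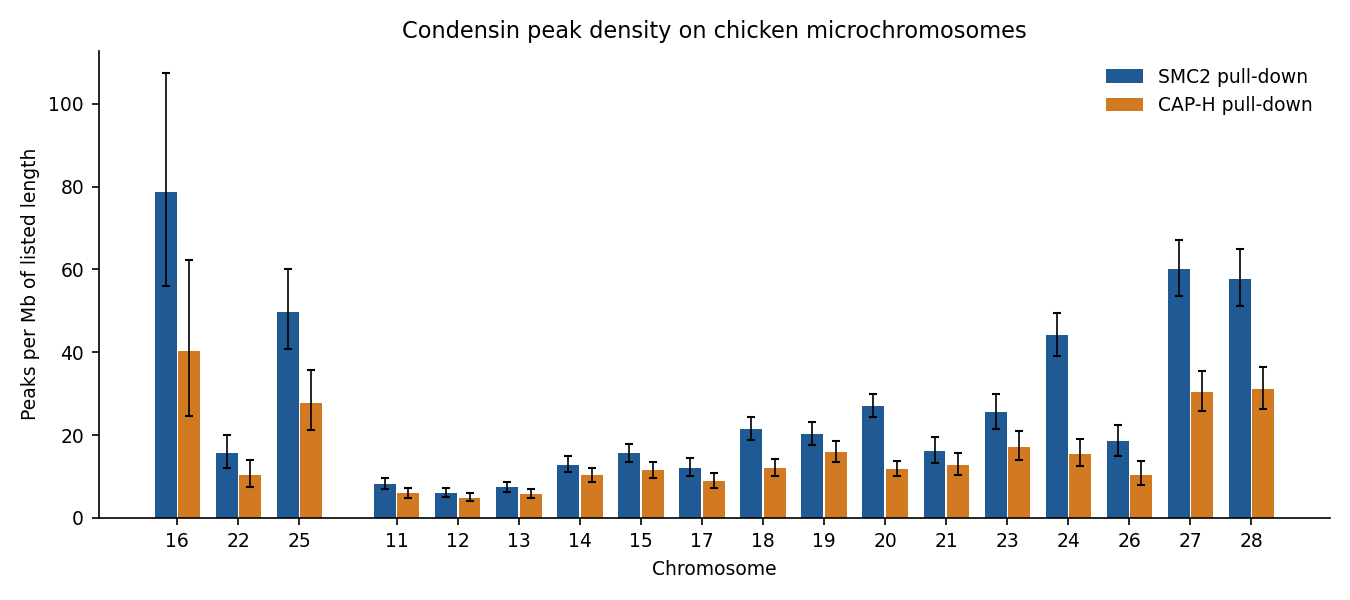
Peaks per Mb of listed length (vertical axis, linear from 0) for chromosomes 16, 22 and 25 on the left and the other 15 microchromosomes on the right, with SMC2 in blue and CAP-H in orange; error bars are 95% exact Poisson intervals of 1 library each. Chromosome 16 stands highest in both lists at 78.6 and 40.3 peaks per Mb, chromosome 25 is number 4 in both, and chromosome 22 lies among the middle and lower bars.

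Set against the pooled other microchromosomes, the density on chromosome 16 was 4.36 times as high for SMC2 (95% exact conditional interval 3.09 to 5.97) and 3.66 times for CAP-H (2.23 to 5.67). For chromosome 25 the ratios were 2.76 (2.26 to 3.34) and 2.53 (1.93 to 3.27). For chromosome 22 they were 0.870 (0.668 to 1.11) and 0.937 (0.673 to 1.27), intervals that include 1. In order of density among 18 microchromosomes, chromosome 16 was first and chromosome 25 number 4 in both lists, while chromosome 22 was number 12 for SMC2 and number 13 for CAP-H. Single other microchromosomes ran from 5.99 SMC2 peaks per Mb on chromosome 12 to 60.1 on chromosome 27, and from 4.88 CAP-H peaks per Mb on chromosome 12 to 30.996 on chromosome 28. The intervals of chromosome 16 overlapped those of chromosomes 27 and 28, so its first place among single chromosomes is within counting error. Between the 3 chromosomes, the density ratio of chromosome 16 to chromosome 25 was 1.58 (1.07 to 2.30) for SMC2 and 1.447 (0.827 to 2.43) for CAP-H, and that of chromosome 25 to chromosome 22 was 3.17 (2.31 to 4.39) and 2.70 (1.79 to 4.10).

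Differences in the share of sequence covered were wider still. On chromosome 16, SMC2 peaks covered 111.8 kb or 22.5% of the listed length and CAP-H peaks 47.1 kb or 9.49%. The corresponding shares were 6.74% and 4.94% for chromosome 25, with 147.6 kb and 108.3 kb in peaks, and 2.05% and 2.22% for chromosome 22, with 83.6 kb and 90.5 kb. Over the other microchromosomes 2.68% of the length lay in SMC2 peaks and 2.27% in CAP-H peaks. The highest shares on a single one of them were 9.24% and 6.43%, both on chromosome 27. SMC2 coverage of chromosome 16 was thus 8.42 times that of the other microchromosomes, against 4.36 times for the number of peaks, its SMC2 peaks being wider as well as more numerous.

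Peaks of both lists were spread unevenly along all 3 chromosomes. On chromosome 16 they were gathered in the first part. Of its peaks, 29 of 39 SMC2 and 16 of 20 CAP-H lay before the mid point at 248119, as did all 6 of its SMC2 peaks that scored at least 500 by the authors' score, a level reached by 2.01% of the whole list. With the chromosome divided into 5 equal parts, part 4, from 297743 to 396990, held 3 SMC2 peaks and 0 CAP-H peaks. No stretch of more than 100 kb was free of peaks, and the longest, from 365401 to 425608, measured 60.2 kb. The first SMC2 peak ran from 2 to 9164 and the first CAP-H peak from 7 to 7243. Both thus began close to the first base of the assembled chromosome, and bases 7 to 7243 lay inside both. The last peak, from 493998 to 496238, was in the SMC2 list and had no CAP-H partner, the last CAP-H peak lying from 447933 to 449393.

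**Figure D2:**
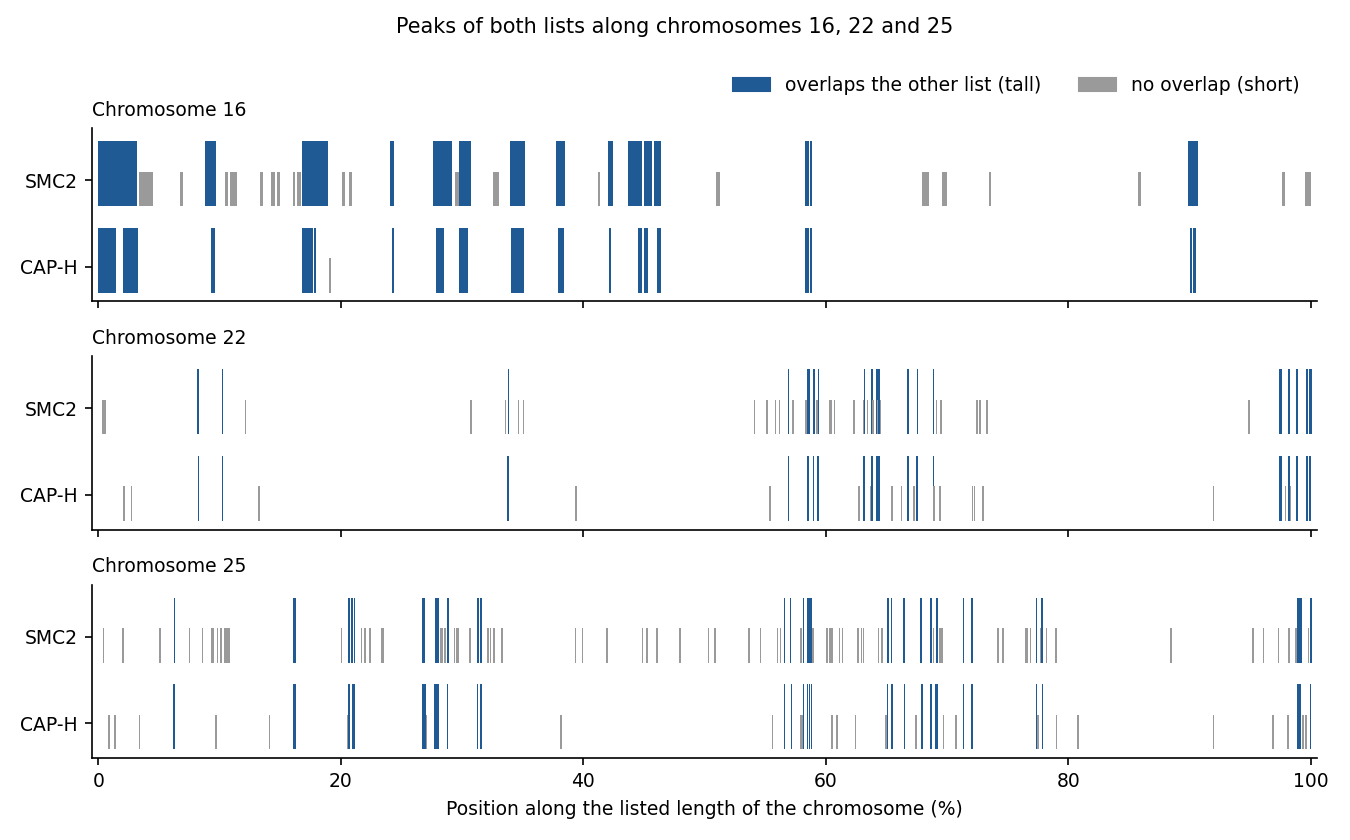
Positions of SMC2 peaks (upper row of each panel) and CAP-H peaks (lower row) along chromosomes 16, 22 and 25, in % of the listed length; tall blue bars overlap a peak of the other list, short grey bars do not, and bars narrower than 0.12% are drawn at that width. Chromosome 16 is crowded before its mid point with 29 SMC2 and 16 CAP-H peaks, chromosome 22 has long empty stretches with 9 of more than 100 kb, and chromosome 25 is filled along most of its length.

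Chromosome 22 was mostly empty. It had 9 stretches of more than 100 kb with no peak of either list, which together made up 2908.5 kb or 71.4% of its listed length. The longest were 761.7 kb from 2985754 to 3747460, 712.1 kb from 538041 to 1250105 and 599.8 kb from 1604127 to 2203955. Between the empty stretches lay a block of 629.9 kb, from 2203956 to 2833821, with 35 of the 64 SMC2 peaks and 20 of the 42 CAP-H peaks in 15.5% of the length. A second dense block filled the last 107.6 kb, from 3968837 to 4076387, with 13 peaks of SMC2 and 11 of CAP-H. There 11 of 13 SMC2 and 9 of 11 CAP-H peaks overlapped the other list by at least 1 bp, against 16 of 51 and 14 of 31 on the rest of the chromosome. In the whole lists 31.0% of SMC2 and 42.4% of CAP-H peaks did so. The blocks were delimited after the positions were seen. At the other side the first SMC2 peaks, from 12680 to 14239, from 14469 to 15497 and from 19931 to 22435, had no CAP-H peak near them. The first CAP-H peak, from 83120 to 84276, lay 60684 bp beyond the last of these.

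The gaps of chromosome 22 were not out of the range of other microchromosomes, on which stretches of more than 100 kb without a peak took between 15.9% of the length on chromosome 28 and 84.9% on chromosome 12, with a median of 50.2%. Chromosome 25 lay below that range at 12.4%, with 2 such stretches, of 166.6 kb from 1769494 to 1936046 and of 105.3 kb from 728705 to 833961, and chromosome 16 had 0. The listed lengths of these chromosomes differ, so the shares are a description only. How far unassembled sequence makes up the empty stretches was not tested.

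Along chromosome 25, 52 SMC2 peaks lay before the mid point at 1095227 and 57 after it, while CAP-H had 20 before and 41 after. The share before the mid point was 47.7% for SMC2 (95% exact binomial interval 38.1 to 57.5) and 32.8% for CAP-H (21.3 to 46.0). These intervals overlap, and the difference was not tested. In 5 equal parts of the chromosome SMC2 had 15, 32, 19, 32 and 11 peaks and CAP-H 8, 12, 10, 22 and 9. The longest interval between CAP-H peaks, 382.1 kb from 834709 to 1216808, held 11 SMC2 peaks. The first peak of the chromosome was an SMC2 peak from 7949 to 8998. Its last peaks were a CAP-H peak from 2188462 to 2190364 and an overlapping SMC2 peak from 2189176 to 2190454.

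Peaks within 50 kb of the first base numbered 6 SMC2 and 3 CAP-H on chromosome 16, 3 and 0 on chromosome 22, and 2 and 3 on chromosome 25. Within 50 kb of the highest listed coordinate there were 3 SMC2 and 2 CAP-H peaks on chromosome 16, and 7 and 5 on each of the others. The highest listed coordinate is itself the end of a peak, so that window always holds a peak. The window at the first base need not hold any, so the counts at the opposite ends are not alike. On chromosome 16 these windows take up a large part of the listed length.

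Most peaks had close neighbours. Joining peaks of either list across gaps of up to 10 kb, with at least 3 peaks to a cluster, gave 6 clusters with 48 of the 59 peaks of chromosome 16, 16 clusters with 79 of the 106 peaks of chromosome 22, and 20 clusters with 127 of the 170 peaks of chromosome 25. The clusters took up 32.8% of chromosome 16, 5.87% of chromosome 22 and 18.02% of chromosome 25. All 6 clusters of chromosome 16 held peaks of both subunits, as did 14 of 16 on chromosome 22 and 17 of 20 on chromosome 25, and the remaining 5 clusters held SMC2 alone. A fixed gap of 10 kb joins more peaks where peaks are dense, and larger clusters hold both lists more readily. The same shares were not computed for the other microchromosomes, so the clusters are a description only.

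The most populous cluster, 70.3 kb long, spanned 33316 to 103619 on chromosome 16 and contained 13 peaks of SMC2 and 4 of CAP-H. Although dense, it was largely an SMC2 cluster, as 2 of its SMC2 peaks overlapped CAP-H. It was followed by a cluster from 204466 to 230230 containing 5 peaks of each list, of which 4 and 5 were shared, and by one from 137119 to 174774 with 5 and 3, of which 3 and 3 were shared. The cluster at the first bases, from 2 to 22167, had 4 SMC2 and 2 CAP-H peaks, and 97.6% of its sequence lay in a peak of either list.

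On chromosome 22 the leading clusters ran from 2569492 to 2602288, containing 6 peaks of SMC2 and 3 of CAP-H, and from 4060514 to 4076387, with 5 and 3, all 8 of them shared. Clusters of 6 peaks from 2615342 to 2627313, from 2936178 to 2973183, from 3968837 to 3977312 and from 3989326 to 4006774 shared the next place. That from 2936178 to 2973183 had 3 peaks of each list and none that overlapped. Chromosome 25 had its leading clusters from 606532 to 649883, containing 11 peaks of SMC2 and 3 of CAP-H, from 1266767 to 1290383 with 6 and 7, and from 2162386 to 2190454 with 6 and 4. The middle one was the densest of these, with 13 peaks in 23.6 kb and 62.7% of its bases in a peak.

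The second question was how far the lists coincide. A peak was counted as shared under the same rule of 1 bp, met by 31.0% of SMC2 and 42.4% of CAP-H peaks in the whole lists. CAP-H sites on chromosome 16 nearly all lay on SMC2 sites. There 17 of 39 SMC2 peaks were shared, or 43.6% (95% exact binomial interval 27.8 to 60.4), and 19 of 20 CAP-H peaks, or 95% (75.1 to 99.9). The CAP-H share on chromosome 16 was above the 53.0% (50.7 to 55.3) of the other microchromosomes, with intervals that do not overlap, and above the highest of any single one of them, 67.7% on chromosome 27. The exception, a CAP-H peak of 752 bp from 94258 to 95009, lay 152 bp from the widest SMC2 peak of the chromosome. The excess depends on the rule: when both peaks had to overlap by 50% or more of their width, the CAP-H share was 45% (23.1 to 68.5) on chromosome 16, against 30.5% (28.3 to 32.6) on the other microchromosomes. SMC2 peaks also covered 22.5% of chromosome 16 against 2.68% of the others, so a CAP-H peak had more sequence on which to meet one. How much of the excess that makes was not tested.

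**Figure D3:**
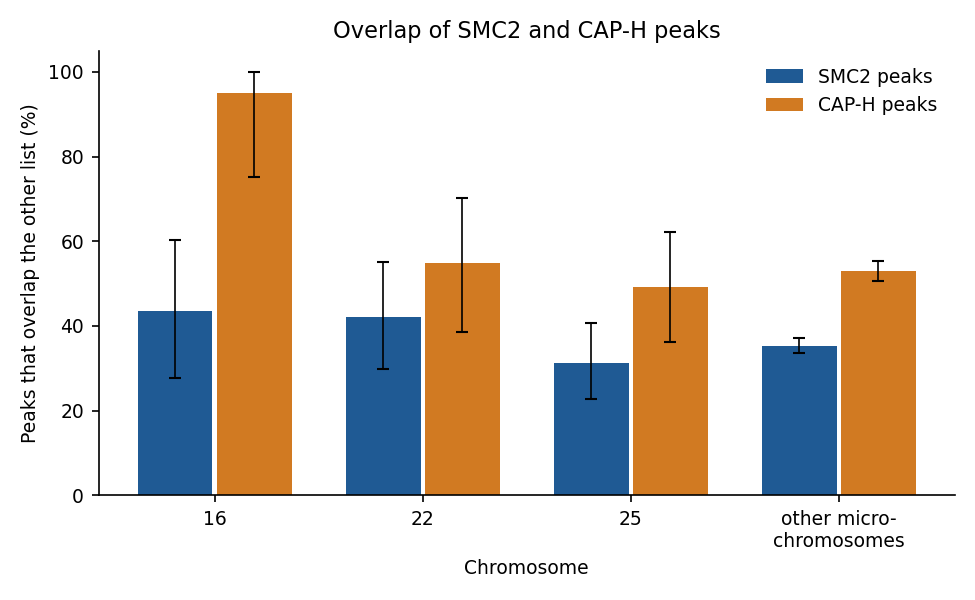
Share of peaks (%) that overlap a peak of the other list by at least 1 bp on chromosomes 16, 22 and 25 and on the other 15 microchromosomes pooled, SMC2 in blue and CAP-H in orange; error bars are 95% exact binomial intervals. The CAP-H bar of chromosome 16, at 95%, is the single bar whose interval is clear of its counterpart on the other microchromosomes, 53.0%.

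Chromosomes 22 and 25 were close to the other microchromosomes in this respect. On chromosome 22, 27 of 64 SMC2 peaks were shared, or 42.2% (29.9 to 55.2), and 23 of 42 CAP-H peaks, or 54.8% (38.7 to 70.2). The counts for chromosome 25 were 34 of 109 SMC2 peaks, or 31.2% (22.7 to 40.8), and 30 of 61 CAP-H peaks, or 49.2% (36.1 to 62.3). SMC2 peaks of the other microchromosomes were shared at 35.4% (33.6 to 37.1), a value inside all 3 SMC2 intervals. Single other microchromosomes ranged from 20.6% to 47.8% for SMC2.

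Counted in bases, the shared sequence was 45.5 kb on chromosome 16, 37.8 kb on chromosome 22 and 49.3 kb on chromosome 25. That was 40.7% of the SMC2 and 96.6% of the CAP-H sequence in peaks on chromosome 16. The shares were 45.3% and 41.8% on chromosome 22, and 33.4% and 45.5% on chromosome 25. On the other microchromosomes they were 37.9% and 44.6%, and in the whole lists 33.1% and 38.3%. Of the distinct sites formed by joining overlapping peaks, 16 of 39 on chromosome 16 held both subunits, 22 held SMC2 alone and 1 held CAP-H alone. The counts were 23, 37 and 19 of 79 sites on chromosome 22 and 28, 75 and 31 of 134 on chromosome 25. Single CAP-H peaks spanning several SMC2 peaks were found at 1 site on chromosome 16, 2 on chromosome 22 and 3 on chromosome 25. The reverse, a single SMC2 peak over several CAP-H peaks, was found at 3, 0 and 1 sites. At 1 further site, on chromosome 25, several peaks of each list were joined. Sites were not counted on the other microchromosomes, so the site counts are a description only.

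Most unshared SMC2 peaks had no CAP-H peak within 1 kb. On chromosome 16, 3 of 22 unshared SMC2 peaks had a CAP-H peak within 1 kb, on chromosome 22 it was 4 of 37 and on chromosome 25 it was 6 of 75. The median distance to the nearest CAP-H peak was 8382 bp, 9795 bp and 11638 bp. For unshared CAP-H peaks the median distance to the nearest SMC2 peak was 8828 bp on chromosome 22, over 19 peaks, of which 2 lay within 1 kb. On chromosome 25 it was 3013 bp, over 31 peaks, of which 9 lay within 1 kb. Neighbouring CAP-H peaks were themselves a median of 10841 bp apart on chromosome 16, 19086 bp on chromosome 22 and 11934 bp on chromosome 25. Distances of unshared peaks were not computed for the other microchromosomes, so they are a description only.

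The balance of the lists was similar to that of other microchromosomes by number. Chromosome 16 had 1.95 SMC2 peaks for each CAP-H peak (95% exact conditional interval 1.11 to 3.53), 1.52 (1.02 to 2.31) on chromosome 22 and 1.79 (1.29 to 2.49) on chromosome 25, against 1.64 (1.55 to 1.74) on the others together. With SMC2 peaks under a score of 100 left out, they were 0.95, 0.524 and 0.525 on chromosomes 16, 22 and 25, against 0.538 on the others. CAP-H peaks have no score, so this limit can only lower the ratios. By bases chromosome 16 differed from the others. SMC2 peaks covered 2.37 times as much sequence as CAP-H peaks on chromosome 16, which was above every other microchromosome (0.729 to 1.98). The ratio was 0.923 on chromosome 22 and 1.36 on chromosome 25, and 1.18 over the others pooled. On chromosome 22, then, CAP-H covered more sequence with fewer peaks, but the median ratio of single other microchromosomes was also 0.923. On chromosome 16 SMC2 led in both number and coverage.

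Widths were compared in the same way. The median SMC2 peak measured 1655 bp on chromosome 16 (quartiles 1337 and 3904, range 662 to 10887), 1072 bp on chromosome 22 (891 and 1464, range 601 to 3866) and 1054 bp on chromosome 25 (840.0 and 1371, range 547 to 5205). Over the other microchromosomes the median was 1171 bp, with single chromosomes between 931 and 1589 bp. The exact interval of the median on chromosome 16 ran from 1370 to 3009 bp, above the 1171 bp of the others. CAP-H medians were 1442 bp on chromosome 16 (range 525 to 7237), 1753 bp on chromosome 22 (625 to 7522) and 1275 bp on chromosome 25 (636 to 6582), against 1512 bp on the others. Widths on chromosome 16 depend on whether near peaks are joined. With peaks merged across gaps of up to 1 kb its SMC2 median was 2569.5 bp (1441 to 4820), against 1191.5 bp on the others. Its CAP-H median was then 2790 bp (1423 to 5256), against 1854.5 bp on the others. The merged CAP-H median was thus above theirs, but its interval included their value. Without merging, among 18 microchromosomes the SMC2 median of chromosome 16 was the highest, the CAP-H median of chromosome 22 was number 3 and that of chromosome 25 was the lowest. These ranks are within counting error. The SMC2 interval of chromosome 16 included the 1589 bp of chromosome 20. The CAP-H interval of chromosome 22, 1353 to 2042 bp, included the 1512 bp of the others. Chromosome 13 had a CAP-H median of 1278 bp, close to the 1275 bp of chromosome 25.

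Peaks of at least 5 kb were 1.47% of the SMC2 list and 3.87% of the CAP-H list. On chromosome 16 they numbered 6 of 39 SMC2 peaks, or 15.4% (5.86 to 30.5), and 3 of 20 CAP-H peaks, or 15% (3.21 to 37.9). Over the other microchromosomes the shares were 1.41% for SMC2 and 5.30% for CAP-H. The CAP-H interval of chromosome 16 included that value, and also the 12.4% of chromosome 24. On chromosome 22 they were 0 of 64 SMC2 and 3 of 42 CAP-H peaks, and on chromosome 25 they were 2 of 109 and 4 of 61. The widest SMC2 peaks of chromosome 16 were 10887 bp from 83219 to 94105, which was number 10 in width in the whole SMC2 list, 9163 bp from 2 to 9164 and 7385 bp from 137119 to 144503. Its widest CAP-H peaks were 7237 bp from 7 to 7243, 6121 bp from 10209 to 16329 and 5256 bp from 168973 to 174228.

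The widest SMC2 peaks elsewhere were narrower. On chromosome 22 they measured 3866 bp from 4063015 to 4066880, 3534 bp from 3973779 to 3977312 and 2954 bp from 2751119 to 2754072, and all 3 were shared. Chromosome 25 had SMC2 peaks of 5205 bp from 227621 to 232825, 5066 bp from 610462 to 615527 and 4721 bp from 203887 to 208607. The first and the last of these had no CAP-H partner and had scores of 98.84 and 85.94, so they were wide without a high score. In the CAP-H list the widest were 7522 bp from 4068866 to 4076387, 7094 bp from 2381770 to 2388863 and 5068 bp from 4063027 to 4068094 on chromosome 22. On chromosome 25 they were 6582 bp from 2166174 to 2172755, 5792 bp from 585146 to 590937 and 5514 bp from 609773 to 615286. All 6 overlapped SMC2 peaks, and the widest CAP-H peak of chromosome 22, the widest of chromosome 25 and the second of each spanned 3 SMC2 peaks.

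Where a single SMC2 peak met a single CAP-H peak, the widths could be set side by side. On chromosome 16 the SMC2 peak was the wider in all 12 such pairs, with a median ratio of SMC2 to CAP-H width of 1.505 and a range of 1.07 to 2.87. The SMC2 peak was the wider in 6 of 21 pairs on chromosome 22 and in 8 of 23 on chromosome 25, with median ratios of 0.762 and 0.806. In shares this was 100% (95% exact binomial interval 73.5 to 100) on chromosome 16, 28.6% (11.3 to 52.2) on chromosome 22 and 34.8% (16.4 to 57.3) on chromosome 25, against 37.9% (34.3 to 41.6) of 686 pairs on the other microchromosomes. The CAP-H peak lay wholly inside the SMC2 peak in 7 of 12 pairs on chromosome 16, and the SMC2 peak inside the CAP-H peak in 0. On chromosome 25 the numbers were 2 and 9 of 23 pairs, and on chromosome 22 they were 4 and 6 of 21. With SMC2 the wider in all 12 pairs of chromosome 16, the second count there could only be 0. Peaks lying inside others were not counted on the other microchromosomes, so these numbers are a description only.

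**Figure D4:**
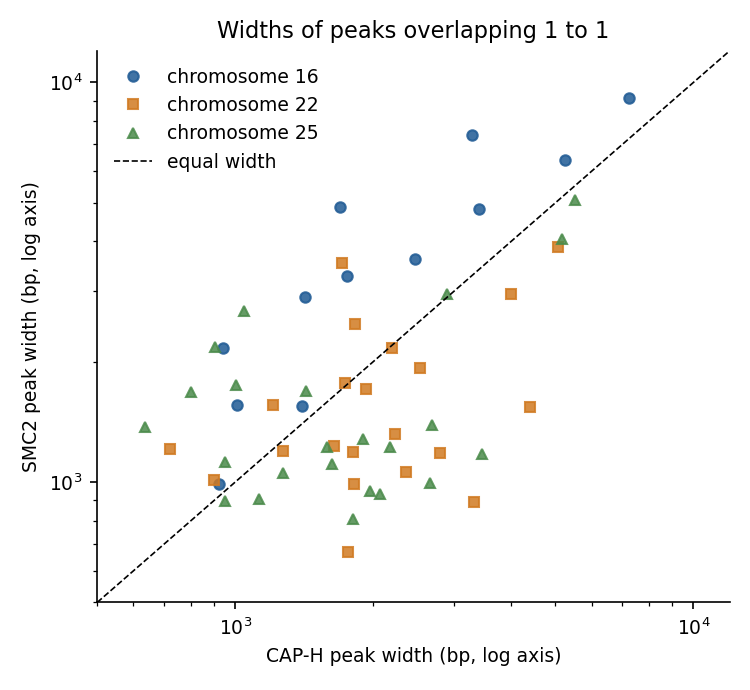
Width of the SMC2 peak (vertical, bp, log axis) against that of the CAP-H peak (horizontal, bp, log axis) for sites where 1 SMC2 peak overlaps 1 CAP-H peak, on chromosome 16 (circles), 22 (squares) and 25 (triangles); the dashed line marks equal width. All 12 pairs of chromosome 16 lie above the line, against 6 of 21 on chromosome 22 and 8 of 23 on chromosome 25.

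As score and width go together in the SMC2 list, the pairs were also counted without SMC2 peaks scoring under 100, a limit applied to the pairs after they were seen. Then the SMC2 peak was the wider in 11 of 11 pairs on chromosome 16, in 6 of 12 on chromosome 22 and in 8 of 14 on chromosome 25, against 46.8% (41.8 to 51.9) of 393 pairs on the other microchromosomes. Without the limit the share on the others was 37.9%. The limit tends to leave out narrow SMC2 peaks, and it does not match scores between chromosomes. What part score has in the widths of the pairs was not tested. Centres of paired peaks were close on all 3 chromosomes, with a median distance of 541 bp on chromosome 16, 211 bp on chromosome 22 and 402 bp on chromosome 25, and a longest distance of 1046 bp.

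The third question was how strong the SMC2 peaks were by the score the authors gave each of them. The score ranges from 50.02 to 3100 in the whole list and is used here only to rank peaks within it. The CAP-H list has none. The median score was 96.2 on chromosome 16, 79.8 on chromosome 22 and 76.4 on chromosome 25, against 78.3 on the other microchromosomes. The interval of the median on chromosome 16, 83.6 to 145, was above the pooled value, but chromosome 18 came close with a median of 96.0. Across the SMC2 peaks of each chromosome, score and width had a Spearman correlation of 0.674 on chromosome 16 (39 peaks), 0.782 on chromosome 22 (64) and 0.797 on chromosome 25 (109), a description over peaks that share 1 library.

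High scores were a larger part of the peaks of chromosome 16. A score of at least 500 was reached by 2.01% of the whole SMC2 list. On chromosome 16 it was 6 of 39, or 15.4% (5.86 to 30.5), against 2.36% (1.84 to 2.97) on the other microchromosomes pooled. Of these, chromosome 18 had the highest share at 5.39% (2.90 to 9.05). Its interval overlapped that of chromosome 16, whose first place among single chromosomes is thus within counting error. There was 1 such peak of 64 on chromosome 22 and 2 of 109 on chromosome 25. Per Mb, this made 12.1 strong SMC2 peaks (4.44 to 26.3) on chromosome 16 and 0.425 (0.331 to 0.537) on the other microchromosomes. All 9 of the strong peaks on the 3 chromosomes were shared with CAP-H, as were all 70 on the other microchromosomes. In the whole list 127 of 130 strong peaks were shared, so these counts are near the general share. The highest score of an unshared peak in the whole list was 2130.53.

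The 5 highest scores on chromosome 16 were 2431.55 at 2 to 9164, 1570.55 at 83219 to 94105, 1401.37 at 168382 to 174774, 918.12 at 147718 to 152536 and 838.68 at 137119 to 144503. The first of these was number 18 in the whole list. On chromosome 22 the peak at 2751119 to 2754072 had a score of 3100, the highest value in the list and one that 14 peaks share. It lay inside a CAP-H peak of 4001 bp from 2750100 to 2754100. Next came 394.73 at 4063015 to 4066880, 244.54 at 19931 to 22435, 227.89 at 2583311 to 2585438 and 213.17 at 332585 to 335068. Those at 19931 and 2583311 had no CAP-H partner. Chromosome 25 was led by 1120.42 at 610462 to 615527, 628.25 at 1282969 to 1287049, 452.71 at 1513242 to 1517304, 412.48 at 1561315 to 1564277 and 229.56 at 2162386 to 2164367. Of these, the last had no CAP-H partner.

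Shared SMC2 peaks had higher scores than unshared ones on each of the 3 chromosomes. Median scores of shared peaks were 371 on chromosome 16, 108 on chromosome 22 and 126 on chromosome 25, against 84.0, 68.8 and 65.7 for unshared peaks. The corresponding medians on the other microchromosomes were 114 and 69.4. The interval of the shared median on chromosome 16 was wide, 112 to 839. When both peaks had to overlap by 50% or more of their width, the shared medians were 145, 138 and 152 on chromosomes 16, 22 and 25. The unshared medians were then 87.4, 73.1 and 71.6. The shared median of chromosome 16 had an interval of 93.7 to 1401 under that rule, which included 371. Whether its height depends on the overlap rule therefore cannot be told. The highest score of any unshared peak was 205 on chromosome 16, 245 on chromosome 22 and 230 on chromosome 25, and the lowest of a shared peak was 57.9, 50.9 and 55.3, so the classes overlapped. A score of at least 100 was reached by 28.9% of the whole SMC2 list. Of the peaks at or above it, 14 of 19 were shared on chromosome 16, 14 of 22 on chromosome 22 and 22 of 32 on chromosome 25, and of the peaks below it 3 of 20, 13 of 42 and 12 of 77. The other microchromosomes had 62.4% (59.2 to 65.4) shared at or above and 22.2% (20.4 to 24.1) below.

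**Figure D5:**
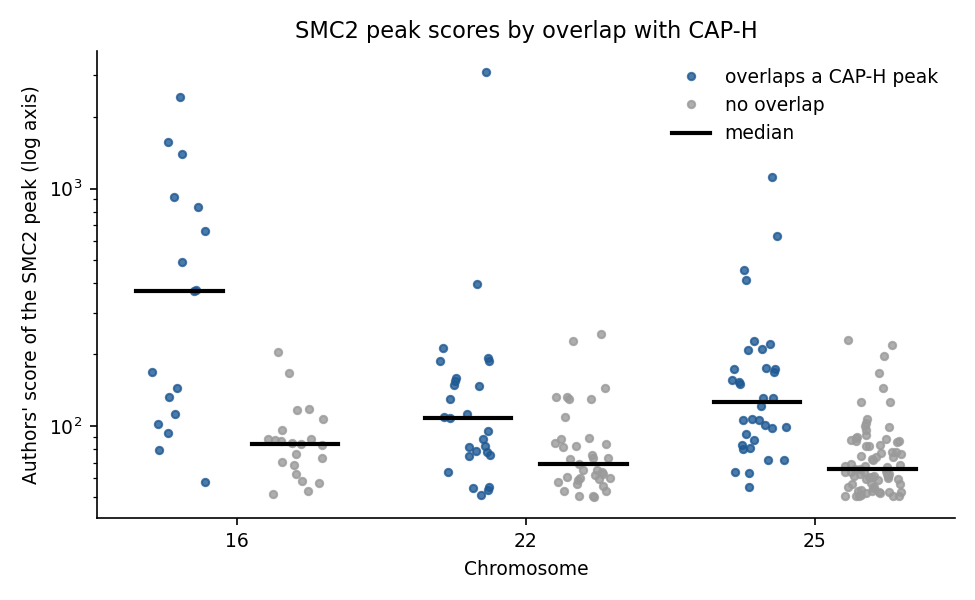
Authors' score of each SMC2 peak (log axis) on chromosomes 16, 22 and 25, split into peaks that overlap a CAP-H peak (blue, left) and peaks that do not (grey, right); black lines are medians and points are spread sideways for view. The shared medians, 371, 108 and 126, lie above the unshared ones, 84.0, 68.8 and 65.7, and no unshared peak exceeds 245.

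Shared peaks were also wider. SMC2 peaks that overlapped CAP-H had a median width of 4192 bp on chromosome 16, 1318 bp on chromosome 22 and 1353 bp on chromosome 25, against 1368 bp, 937 bp and 949 bp for those that did not. For CAP-H the medians of shared peaks were 1925 bp on chromosome 22 and 1858 bp on chromosome 25, against 1308 bp and 1028 bp for unshared peaks. The other microchromosomes had the same direction, with 1552 bp against 1061 bp for SMC2 and 2023 bp against 1209.5 bp for CAP-H. A wider peak has more room to meet a peak of the other list, and how much of the difference in width that makes was not tested.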

How the data were processed

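Peak lists of 2 pull-down libraries from DT40 cells were analysed. Per the submitters' processing notes, reads were aligned with BWA to galGal4. Peaks bear names of the MACS kind in the deposited files. Which version, control or cutoff the caller used is not given in the sources at hand. The lists hold start and end positions, which no header explains. Starts were taken as counted from 0, since the lowest start in both deposited files is 0, and are printed counted from 1. In the SMC2 list each peak also has a score set by the authors, which no header defines. The deposited TSS profiles hold no value per chromosome and were not used.

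Groups were taken from sample titles. Overlap, coverage (overlapping peaks merged), widths, gaps and clusters were computed in Python 3.11.15 (scipy 1.17.1, pandas 2.3.3, numpy 2.4.6), and plots drawn in matplotlib 3.10.9. Counting of overlaps was first tested on simulated data. Intervals are at 95%: exact Poisson for densities, exact binomial for shares, exact conditional for ratios, and order statistics for medians. No test across replicates was possible. Named regions were, on each chromosome, the 5 highest SMC2 scores, the 3 widest peaks of each list, the first and last peaks, the 3 clusters with most peaks, the longest empty stretch and, on chromosome 16, unshared CAP-H peaks. Other regions were named after their values were seen. The chromosomes, lists and measures were chosen with earlier results of these data known. Alternatives tried were a score limit, merging of near peaks, other overlap rules, other lengths and other cluster gaps.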

Additional observations from a re-analysis of the deposited data

How the results depend on the processing

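Of 78 values recomputed under the alternatives, 52 stayed within the counting interval of the reported value and 26 moved outside it. For clusters the limit was a factor of 1.5 either way. Among the 52 were 12 values with length measured from the first to the last peak. That alternative removes only the bases before the first peak, so it could hardly move a value. Sequence beyond the last peak was not probed by it. Dropping SMC2 peaks that scored under 100 moved most: the SMC2 densities of chromosomes 16, 22 and 25 became 38.3, 5.397 and 14.6 peaks per Mb, or 6.47 (3.88 to 10.2), 0.912 (0.569 to 1.39) and 2.47 (1.68 to 3.51) times the other microchromosomes under the same limit, so the order of the 3 chromosomes was kept. Under that limit SMC2 covered 1.01% of chromosome 22 and 2.85% of chromosome 25, the SMC2 peaks per CAP-H peak were 0.95, 0.524 and 0.525 on chromosomes 16, 22 and 25, against 0.538 on the other microchromosomes, and median SMC2 widths were 3616 bp, 1585 bp and 1620 bp. Shared SMC2 peaks were then 73.7%, 63.6% and 68.8% on chromosomes 16, 22 and 25, against 62.4% (59.2 to 65.4) on the other microchromosomes. Shared CAP-H peaks were then 85% (62.1 to 96.8), 33.3% and 31.1% on chromosomes 16, 22 and 25. The CAP-H share under that limit was not computed for the other microchromosomes. Clusters were then 7, 10 and 13.

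When both peaks had to overlap by 50% or more of their width, shared SMC2 peaks were 23.1%, 21.9% and 14.7% on chromosomes 16, 22 and 25 and shared CAP-H peaks 45%, 33.3% and 26.2%, against 18.6% and 30.5% on the other microchromosomes. The exact interval for CAP-H on chromosome 16 was then 23.1 to 68.5 and included the value of the others. The high CAP-H share of chromosome 16 thus depends on the overlap rule. In all 12 of its pairs of 1 SMC2 and 1 CAP-H peak, the SMC2 peak was the wider. What part this has in the drop was not tested. Counting gaps of up to 500 bp as shared brought CAP-H on chromosome 16 to 100%. A cluster gap of 5 kb gave 10 clusters there. Merging peaks across gaps of up to 1 kb or a cluster gap of 20 kb left each value within those limits. On chromosome 16 the limits are wide: merging brought the median SMC2 width there to 2569.5 bp and the median CAP-H width to 2790 bp. Measuring length from the first to the last peak also left each value within them, which was given by its construction. No paired analysis was possible because each subunit has 1 pull-down library. Depth and replicate spread are unknown, so weak peaks missing from a list cannot be told apart from sites that were not bound.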
